A study of Mus musculus with 14 samples.

Results

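The NADPH oxidases of the colon epithelium, their partner proteins and the inducible nitric oxide synthase were described across 14 mice of 2 genotypes. The members were taken by gene symbol and are 9 genes, *Duox1*, *Duox2*, *Duoxa1*, *Duoxa2*, *Nox1*, *Noxo1*, *Noxa1*, *Cyba* and *Nos2*, of 55889 genes in the table of mice without dextran sulfate sodium (DSS) and of 54721 genes in the table of mice after DSS. All 9 passed the filter on low reads in both tables, which left 15441 and 14908 genes. The mice were C57BL/6N. The experiment without DSS had 4 mice of each genotype, WT and *MiR-29ab1-/-*. The experiment with DSS, which injures the colon epithelium and was given at 3.5% in the drinking water for 3 days, had 3 of each. The *MiR-29ab1-/-* mice lack the *Mir29a* and *Mir29b-1* cluster in every cell of the body, so the values do not say in which cells the deletion acts. The study used littermates of 8 to 12 weeks and both sexes, but the age and sex of each sequenced mouse are not given in the sources used here. The study also left 1 WT and 1 *MiR-29ab1-/-* sample out of its own analysis without naming them. Its figure legends give 4 mice of each genotype without DSS and 3 after DSS, the same numbers as the 14 mice used here. Whether the samples left out are among these 14 is not stated. The comparison asks whether loss of the cluster goes with other levels of the enzymes that make reactive oxygen and nitrogen species.

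The enzymes of this group pass electrons from NADPH to oxygen or, in the case of the synthase, use NADPH and oxygen to turn arginine into nitric oxide. DUOX1 and DUOX2, the dual oxidases, release hydrogen peroxide at the apical membrane, and each needs its maturation factor, DUOXA1 or DUOXA2, to leave the endoplasmic reticulum. NOX1, the superoxide-producing oxidase of the colon, works with the membrane subunit p22phox (*Cyba*), the organizer NOXO1, the activator NOXA1 and the GTPase RAC1. In the gut *Duox2*, *Duoxa2* and *Nos2* are known as genes that microbes and inflammatory cytokines induce.

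The deleted cluster encodes miR-29a and miR-29b. Their mature sequences are shown because the seed, bases 2 to 8 in capitals, is what pairs with a target. They are from RefSeq on GRCm38.p6, and both lie on chromosome 6, minus strand, miR-29a-3p at chr6:31062673-31062694 and miR-29b-3p at chr6:31063025-31063047.
mmu-miR-29a-3p: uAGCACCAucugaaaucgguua
mmu-miR-29b-3p: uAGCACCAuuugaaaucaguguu
Both have the same seed. An identical mature miR-29b-3p is encoded by *Mir29b-2* on chromosome 1, and *Mir29c*, also on chromosome 1, encodes miR-29c-3p with the same seed. The deletion leaves *Mir29b-2* and *Mir29c* in place. The DNA match to the seed, TGGTGCT, with or without a following A, was searched in the annotated 3′ UTRs of GENCODE vM21, for every gene with a protein-coding transcript. It was present in 2905 of 21020 genes (13.8%) and in 0 of the 9 members, whose longest annotated 3′ UTRs ran from 57 bases in *Noxa1* to 1554 bases in *Duoxa1*. The absence of these letters says nothing of other kinds of pairing.

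*Duox2* and *Duoxa2* lie head to head on chromosome 2. In the annotation without DSS *Duox2* is on the minus strand at 122279247 to 122298449 and *Duoxa2* on the plus strand at 122298900 to 122302885. There 450 bases lie between their starts. In the annotation after DSS *Duox2* starts at 122298165, so these starts lie farther apart. The promoters of both genes are shown because these neighbours varied together across the mice, and that of *Nox1* because it went the other way after DSS. Each is 250 bases before to 50 bases after the RefSeq start on GRCm38.p6, read along the strand of its gene. The windows are chr2:122298178-122298477 for *Duox2* (minus strand), chr2:122298650-122298949 for *Duoxa2* (plus strand) and chrX:134111805-134112104 for *Nox1* (minus strand). The RefSeq start of *Nox1* lies inside the longer gene given in the deposited tables. That of *Duox2* lies inside the gene as annotated without DSS, so it is more than 450 bases from the start of *Duoxa2*. Capitals mark a match to a searched motif.
Duox2: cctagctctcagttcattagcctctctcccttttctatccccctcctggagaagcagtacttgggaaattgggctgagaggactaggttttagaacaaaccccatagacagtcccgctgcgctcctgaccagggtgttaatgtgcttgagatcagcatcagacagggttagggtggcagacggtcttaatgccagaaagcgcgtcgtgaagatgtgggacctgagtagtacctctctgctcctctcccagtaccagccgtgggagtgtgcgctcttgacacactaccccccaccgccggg
Duoxa2: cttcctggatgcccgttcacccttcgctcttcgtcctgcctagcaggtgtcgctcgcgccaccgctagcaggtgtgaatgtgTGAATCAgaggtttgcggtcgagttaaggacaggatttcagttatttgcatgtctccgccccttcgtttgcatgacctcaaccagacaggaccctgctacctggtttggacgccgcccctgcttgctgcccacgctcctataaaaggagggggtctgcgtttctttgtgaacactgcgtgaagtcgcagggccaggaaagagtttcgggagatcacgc
Nox1: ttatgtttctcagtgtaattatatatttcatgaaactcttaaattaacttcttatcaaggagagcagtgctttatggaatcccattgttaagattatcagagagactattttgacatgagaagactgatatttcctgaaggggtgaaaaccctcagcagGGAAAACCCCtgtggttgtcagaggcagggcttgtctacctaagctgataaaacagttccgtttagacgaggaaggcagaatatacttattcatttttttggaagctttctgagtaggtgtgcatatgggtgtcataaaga
The motifs searched on both strands were the STAT motif GAS (TTCNNNGAA), AP-1 (TGANTCA) and the NF-kappaB consensus. Of 32851 promoters of this length, 8.3% held GAS, 7.81% AP-1 and 8.46% NF-kappaB. Among the 8 members with a promoter in the RefSeq table, GAS was in 0, AP-1 in 1 (*Duoxa2*, starting 168 bases before the start) and NF-kappaB in 2 (*Nox1*, 91 bases before the start, and *Noxa1*, near the far end of the window). *Nos2* had no entry. These matches describe letters in a window and not binding.

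Reads counted on genes totalled 14231157 to 18185020 per mouse without DSS and 20076719 to 23153149 after DSS, so that 3 reads, taken as the floor, were 0.13 to 0.211 CPM (read counts scaled to a common library size). Reads on *Lncpint*, the long noncoding RNA beside the deleted cluster, were 7 to 23 in the WT mice and 1386 to 2889 in the *MiR-29ab1-/-* mice without DSS, and 6 to 14 against 706 to 1144 after DSS, which separated the genotypes as labelled. The miRNAs themselves are too short for these libraries to check the deletion directly. The tissue in the labels is small intestinal crypts, whereas the study names colon. Genes of the epithelium in general (7 genes) summed to 10200 to 21300 CPM. Genes of the colon epithelium (7 genes, mostly *Car1* and, after DSS, also *Muc2*) summed to 1940 to 15500 CPM. Genes of the small intestine (8 genes, mostly *Fabp2* and *Slc5a1*) summed to 331 to 590 CPM and genes of smooth muscle (5 genes) to 0.921 to 3.5 CPM. After DSS the *MiR-29ab1-/-* libraries with the highest and second highest *Duox2* had 20.2% and 14.8% of their reads on mitochondrial genes, against 6.15% to 8.81% in the other 4 libraries.

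Per kilobase of gene length, the NOX1 subunits *Noxa1* and *Cyba* were the most abundant members in the unchallenged WT colon. *Noxa1* stood at 66.0 ± 3.28 CPM per kilobase (SD, n = 4), *Cyba* at 65.0 ± 6.24 and *Duox2* at 36.5 ± 12.6. *Nox1* itself followed at 20.5 ± 3.72 and *Duoxa2* at 15.4 ± 6.74. The ranges of *Noxa1* and *Cyba* overlapped, and neither was the higher in all 4 mice. Those of *Duox2* and *Nox1* overlapped too, but within each mouse *Duox2* was the higher, at 1.42 to 2.08 times *Nox1*. *Nox1* was above *Duoxa2* in each mouse, by as little as 25.8 against 25.4 CPM per kilobase. *Nos2* (2.43 ± 1.12) and *Noxo1* (1.94 ± 0.661) were lower than all of these and overlapped each other. *Duoxa1* (0.305 ± 0.0101) and *Duox1* (0.153 ± 0.0143) were the lowest, and did not overlap. *Duox2* was thus the main dual oxidase, with 158 to 365 times as many reads per length as *Duox1* in the WT mice without DSS and 226 to 346 times after DSS.

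After DSS the order among the WT mice differed in places, the 2 experiments being separate tables. *Cyba* led at 105 ± 8.62 CPM per kilobase (SD, n = 3), above *Noxa1* at 49.0 ± 5.35. *Duox2* (22.5 ± 7.53) and *Duoxa2* (18.3 ± 10.4) overlapped, and *Nox1* stood at 5.98 ± 0.577, below every *Duoxa2* value. In the *MiR-29ab1-/-* mice after DSS *Duoxa2* (50.9 ± 19.4), *Noxa1* (50.3 ± 7.2) and *Duox2* (43.5 ± 11.6) overlapped below *Cyba* (109 ± 15.3), and *Nos2* (6.98 ± 2.94) and *Nox1* (3.12 ± 1.38) overlapped each other. Gene lengths were those of each table, in which *Duox2* has 6771 bases without DSS and 6403 after DSS.

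**Figure D1:**
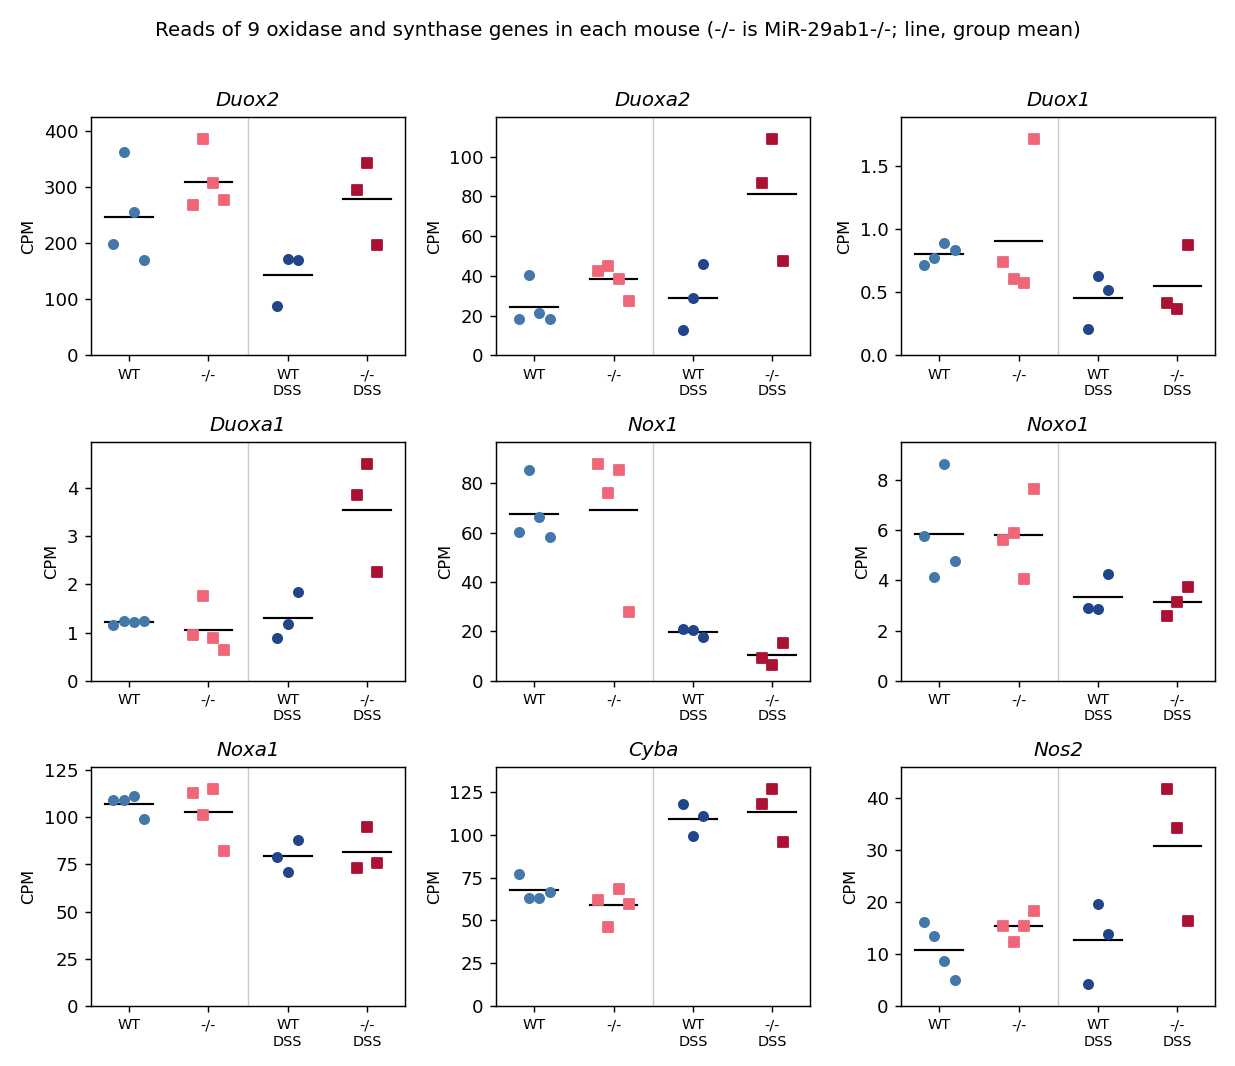
Level of each of the 9 genes in each mouse in CPM (vertical axes, from 0), by genotype without DSS (left of the grey line, 4 mice each) and after DSS (right, 3 mice each); points are mice and lines are group means. After DSS the *MiR-29ab1-/-* mice sat above the WT mice for *Duox2* (197 to 343 against 88.2 to 173 CPM), *Duoxa2* and *Duoxa1* and below them for *Nox1* (6.47 to 15.4 against 17.6 to 21.1 CPM).

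Without DSS the genotypes overlapped for all 9 genes. In these bulk samples fewer cells of a type and less RNA per cell cannot be told apart. Of the members 0 passed an adjusted p under 0.05 in edgeR's quasi-likelihood test, and 0 in DESeq2, where by edgeR 0.0194% of the 15441 genes tested did (3 genes), and 1 member, *Duoxa2*, had an unadjusted p under 0.05, as 3.67% of all genes had. Groups that do not overlap in CPM were seen for 0 of the 9 members and for 2.03% of all genes.

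*Duox2*, the main dual oxidase here, had 198, 363, 256 and 170 CPM in the WT mice and 269, 387, 307 and 277 CPM in the *MiR-29ab1-/-* mice. The WT mouse with 363 CPM lay within the range of the *MiR-29ab1-/-* mice and the other WT mice lay below it. The log2 fold change was 0.33, with a standard error of 0.23 and an adjusted p = 1 by edgeR. *Duoxa2*, which encodes the factor that DUOX2 needs to reach the membrane, had 18.2, 40.4, 21.4 and 18.1 CPM in the WT mice and 42.4, 44.9, 38.5 and 27.5 CPM in the *MiR-29ab1-/-* mice. The WT mouse highest for *Duox2* was also the highest WT mouse here, while the lowest *MiR-29ab1-/-* mouse was another one than for *Duox2*. The log2 fold change was 0.65 (standard error 0.28, unadjusted p = 0.0457 and adjusted p = 1 by edgeR), and a two-sided exact permutation test of log2 CPM gave p = 0.0857; the smallest p of this design is 0.0286. With the phagocyte score as a covariate, with no filter on low counts, with the spread of all 14 mice, or without any 1 of 6 of the 8 mice, the unadjusted p was above 0.05.

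*Nos2*, the inducible nitric oxide synthase on chromosome 11 (78920787 to 78960254, plus strand), had 16.2, 13.4, 8.66 and 4.96 CPM in the WT mice and 15.4, 12.2, 15.3 and 18.3 CPM in the *MiR-29ab1-/-* mice. The WT mice spread over a wider range, and its upper part overlapped the *MiR-29ab1-/-* mice (log2 fold change 0.50, standard error 0.32, adjusted p = 1 by edgeR). *Nox1*, on the X chromosome (134086421 to 134221956, minus strand), had 60.5, 85.3, 66.4 and 58.3 CPM in the WT mice and 88.0, 76.1, 85.4 and 27.7 CPM in the *MiR-29ab1-/-* mice. One *MiR-29ab1-/-* mouse stood far below all other mice, and the log2 fold change was 0.036 (standard error 0.33).

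For the other members the estimates lay between -0.19 and 0.17. *Noxa1* gave 107 ± 5.3 CPM in WT and 103 ± 15 CPM in *MiR-29ab1-/-* mice (SD, n = 4 each). *Cyba* gave 67.5 ± 6.47 and 59.0 ± 9.24 CPM (log2 fold change -0.19, standard error 0.12). *Noxo1* gave 5.84 ± 2.00 and 5.81 ± 1.48 CPM, *Duoxa1* 1.21 ± 0.0407 and 1.06 ± 0.487 CPM, and *Duox1* 0.804 ± 0.0745 and 0.911 ± 0.545 CPM. *Duoxa1* and *Duox1* rested on 9 to 29 reads per mouse, so only a large difference could have been seen for them.

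In the experiment with DSS, *Duox2*, *Duoxa2* and *Duoxa1* were higher in every *MiR-29ab1-/-* mouse than in any WT mouse. There *Nox1* was lower in every *MiR-29ab1-/-* mouse than in any WT mouse. Such groups that do not overlap were seen for 4 of the 9 members and for 11.6% of the 14908 genes tested. By edgeR's quasi-likelihood test 3 of the 9 members had an unadjusted p under 0.05 (*Duoxa1*, *Nox1* and *Duox2*), as 7.23% of all genes had. After adjustment 0 passed by edgeR, where 0.0134% of all genes (2 genes) did, and 0 passed by DESeq2. The median log2 fold change was 0.31 over the 9 members and -0.0051 over all genes. This member median is the estimate of *Duox1*, the least abundant member, and has a standard error of 0.56.

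*Duox2* had 88.2, 173 and 171 CPM in the WT mice after DSS and 295, 343 and 197 CPM in the *MiR-29ab1-/-* mice. The lowest *MiR-29ab1-/-* mouse was close to the highest WT mouse, and the other *MiR-29ab1-/-* mice were well above. The log2 fold change was 0.95 (standard error 0.32, unadjusted p = 0.0223 and adjusted p = 0.646 by edgeR). The two-sided exact permutation test gave p = 0.1, the smallest that 3 mice against 3 can give.

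*Duoxa2* had 12.7, 28.8 and 45.8 CPM in the WT mice after DSS and 86.6, 109 and 47.5 CPM in the *MiR-29ab1-/-* mice. The gap between the groups was narrow, from 45.8 to 47.5 CPM, and the log2 fold change was 1.48 (standard error 0.57, unadjusted p = 0.0508 and adjusted p = 0.668 by edgeR). Set against the enzyme it matures, *Duoxa2* had 0.579 to 1.08 times the reads per length of *Duox2* in the WT mice and 0.969 to 1.28 times in the *MiR-29ab1-/-* mice. Without DSS this ratio was 0.356 to 0.473 in WT and 0.422 to 0.671 in *MiR-29ab1-/-* mice, below the lowest value after DSS in all but 1 mouse. The ratios of the genotypes overlapped in both experiments.

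*Duoxa1* lies at 122302191 to 122313730 on the minus strand of chromosome 2. It had 0.879, 1.17 and 1.85 CPM in the WT mice after DSS and 3.86, 4.51 and 2.25 CPM in the *MiR-29ab1-/-* mice, from 21 to 85 reads. All *MiR-29ab1-/-* mice were higher (log2 fold change 1.44, standard error 0.39, unadjusted p = 0.00462 and adjusted p = 0.646 by edgeR). Its last 695 bases overlap the end of *Duoxa2* on the other strand. Its reads were 4.14% to 4.73% of the *Duoxa2* reads in the *MiR-29ab1-/-* mice and 4.04% to 6.93% in the WT mice after DSS. Whether the reads were counted by strand is not given in the sources used here, so reads of *Duoxa1* and of *Duoxa2* in the overlap cannot be told apart. *Duox1*, which starts 1941 bases from *Duoxa1* on the plus strand, had 0.209 to 0.628 CPM in WT and 0.371 to 0.874 CPM in *MiR-29ab1-/-* mice, from 5 to 21 reads, and no difference was detectable at this depth (log2 fold change 0.31, standard error 0.56).

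*Nos2* had 4.19, 19.6 and 13.9 CPM in the WT mice after DSS and 41.7, 34.2 and 16.4 CPM in the *MiR-29ab1-/-* mice. The lowest *MiR-29ab1-/-* mouse lay below the highest WT mouse, so the groups overlapped. The log2 fold change of 1.29 had a standard error of 0.66 (unadjusted p = 0.108 and adjusted p = 0.686 by edgeR). The *MiR-29ab1-/-* mouse with the lowest *Nos2* was also the lowest for *Duox2*, *Duoxa2* and *Duoxa1*, and the WT mouse with the lowest *Nos2* was the lowest WT mouse for these genes.

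*Nox1* went the other way after DSS. It had 21.1, 20.6 and 17.6 CPM in the WT mice and 9.11, 6.47 and 15.4 CPM in the *MiR-29ab1-/-* mice, with the highest *MiR-29ab1-/-* mouse just below the lowest WT mouse. The log2 fold change was -0.93 (standard error 0.29, unadjusted p = 0.0120 and adjusted p = 0.646 by edgeR). The highest *MiR-29ab1-/-* mouse for *Nox1* was the lowest for *Duox2*. With the score of epithelial genes in general as a covariate the estimate was -0.54, and for *Duox2* it was 0.42, for *Duoxa2* 0.69, for *Duoxa1* 0.84 and for *Nos2* 0.45. Without this *MiR-29ab1-/-* mouse *Nox1* was the only member with an adjusted p under 0.05 in any genotype comparison in which 1 mouse was left out (log2 fold change -1.34, adjusted p = 0.0373 by edgeR). The ratio of *Duox2* to *Nox1* reads per length was 2.15, 4.33 and 5.03 in the WT mice and 16.7, 27.4 and 6.63 in the *MiR-29ab1-/-* mice, and without DSS it was 1.42 to 2.08 and 1.49 to 4.87.

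For the subunits that NOX1 needs, the estimates after DSS were near 0. *Cyba* gave 110 ± 9.21 CPM in WT and 114 ± 16.1 CPM in *MiR-29ab1-/-* mice (SD, n = 3 each), and its log2 fold change was 0.050 (standard error 0.12). *Noxa1* gave 79.3 ± 8.64 and 81.4 ± 11.7 CPM, with 0.037 (standard error 0.13), and *Noxo1* 3.33 ± 0.81 and 3.15 ± 0.587 CPM, with -0.077 (standard error 0.28). For *Cyba* and *Noxa1* the standard errors are small against the estimate for *Nox1*. *Noxo1*, on chromosome 17 (24696234 to 24700529, plus strand), shares 2581 bases with *Tbl3* on the other strand, so its level is uncertain.

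**Figure D2:**
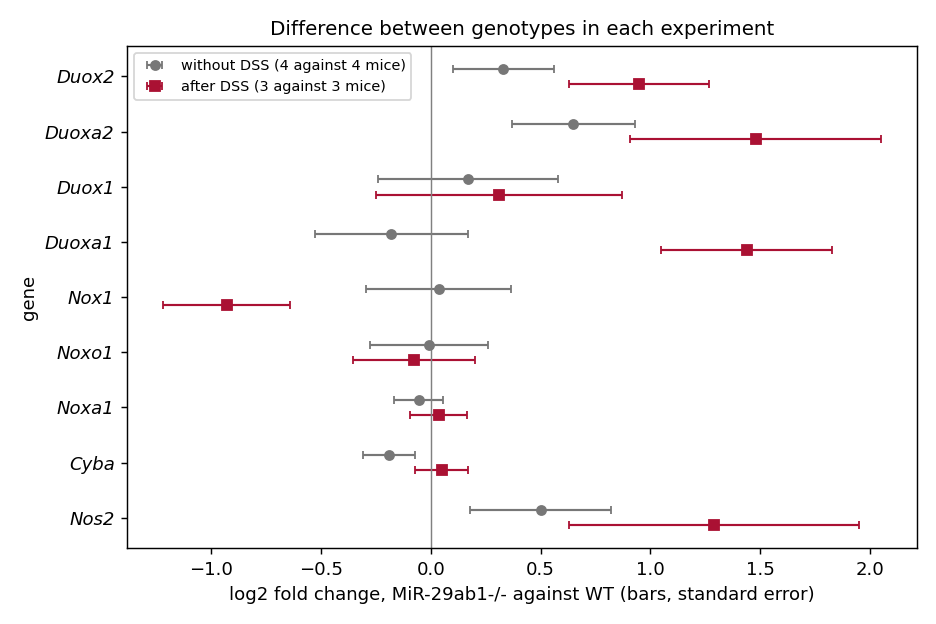
Log2 fold change of each gene in *MiR-29ab1-/-* against WT mice (horizontal axis; bars are standard errors of edgeR's quasi-likelihood fit), without DSS (grey circles, 4 against 4 mice) and after DSS (red squares, 3 against 3 mice). *Duoxa2* (1.48), *Duoxa1* (1.44), *Nos2* (1.29) and *Duox2* (0.95) stood right of 0 after DSS and *Nox1* (-0.93) left of it, and none of the 9 passed an adjusted p under 0.05.

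Genes of phagocytes had estimates in the same direction as the dual oxidases. After DSS 9 of the 10 genes of the phagocyte list were tested. All 9 had estimates above 0, and 1 (*S100a8*) passed 0.05 before adjustment and 0 after it. Their summed level was 125 to 188 CPM in the WT mice and 186 to 340 CPM in the *MiR-29ab1-/-* mice, with none of the 10 genes at 0 throughout a group. Most of the sum came from *Ly6g* (means of 67.7 CPM in WT and 131 CPM in *MiR-29ab1-/-* mice) and *Cd14* (71.7 and 83.8 CPM). Other genes of the list were far lower, such as *Itgam* at 2.18 and 3.14 CPM. *S100a8*, an alarmin of neutrophils, had 0.167, 1.00 and 1.47 CPM in the WT mice and 9.32, 13.9 and 0.874 CPM in the *MiR-29ab1-/-* mice. The *MiR-29ab1-/-* mouse low for *Duox2* was low here too. With the score of the phagocyte list as a covariate the log2 fold changes after DSS were 0.31 for *Duox2*, 0.52 for *Duoxa2*, 0.76 for *Duoxa1*, 0.27 for *Nos2* and -0.52 for *Nox1*, and only *Duox2* had an unadjusted p under 0.05 (0.0444, adjusted p = 1 by edgeR). This score is the plain mean of log2 CPM over the list. Genes with few reads, such as *Fcgr1* with 1 to 9 reads per mouse after DSS, thus weigh as much as *Cd14*. *Cybb*, the catalytic subunit of the phagocyte oxidase, was at 0.837 to 2.51 CPM in the 6 mice after DSS. The part of phagocytes in the differences was not tested. Genes of T cells had estimates in this direction as well. After DSS 7 of 7 were above 0, with a median log2 fold change of 0.56 against 0.57 for the phagocyte list, and 0 had an unadjusted p under 0.05. Their summed level was 38.3 to 74.4 CPM in the WT mice and 52.2 to 122 CPM in the *MiR-29ab1-/-* mice, and the part of T cells was not tested either. *Cubn*, of the small intestine list, was at 3.87 ± 0.221 CPM in WT and 1.62 ± 1.27 CPM in *MiR-29ab1-/-* mice (SD, n = 3 each). Without DSS the T cell list summed to 39.4 to 147 CPM in WT and 31.9 to 166 CPM in *MiR-29ab1-/-* mice, and the phagocyte list to 65.9 to 89.3 CPM in WT and 75.1 to 93.1 CPM in *MiR-29ab1-/-* mice.

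Whether the genotype difference itself differed between the experiments was tested with a single model of the 14 mice. The interaction was largest for *Duoxa1*, at 1.63 on the log2 scale (standard error 0.52, unadjusted p = 0.00709 and adjusted p = 0.987 by edgeR). It was -0.96 (standard error 0.51) for *Nox1*, 0.84 (standard error 0.61) for *Duoxa2*, 0.79 (standard error 0.69) for *Nos2* and 0.63 (standard error 0.41) for *Duox2*. As each mouse was left out it ran from 0.48 to 1.32 for *Duoxa2*, from 0.37 to 1.28 for *Nos2* and from 0.37 to 0.82 for *Duox2*, with the lowest value of each without the WT mouse after DSS that had the lowest *Duox2* and, for *Duox2* and *Duoxa2*, also without the WT mouse of 363 CPM of *Duox2* without DSS. For *Duoxa2* the highest value, without the WT mouse with 45.8 CPM after DSS, had an unadjusted p = 0.049 by edgeR. For *Nos2* the highest value was without the WT mouse with 19.6 CPM after DSS, and it was 0.50 without the *MiR-29ab1-/-* mouse with 41.7 CPM after DSS. For *Cyba*, *Noxa1*, *Noxo1* and *Duox1* it was between -0.068 and 0.25. Thus 1 of the 9 members had an unadjusted p under 0.05, as 4.03% of 16370 genes had, and 0% of all genes passed an adjusted p under 0.05. The larger estimates after DSS for *Duox2*, *Duoxa2*, *Nos2* and *Nox1* were not shown to differ from those without DSS.

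The same model gave the difference between mice after DSS and mice without DSS in each genotype. The treatment and the experiment are the same contrast, so DSS and any other difference between the experiments, such as annotation, library making or tissue preparation, cannot be told apart. *Muc2*, the main gel-forming mucin, was at 22.1 to 164 CPM in all 8 mice without DSS and at 3550 to 7990 CPM in all 6 mice after DSS, and the 7 genes of the epithelium in general were all higher after DSS in both genotypes, so the experiments differed widely beyond the members. Median log2 fold changes of all genes were -0.022 in WT and -0.029 in *MiR-29ab1-/-* mice as scaled here, and would be -0.22 and -0.34 with scaling by total reads alone. The changes below are relative to the former.

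*Nox1* fell in both genotypes and *Cyba* rose in both. *Nox1* was 62.0 ± 11.7 CPM in WT mice without DSS (SD, n = 4) and 22.3 ± 2.17 CPM after DSS (SD, n = 3) on the scale of this model, and the log2 fold change of -1.48 had a standard error of 0.37 (adjusted p = 0.00866 by edgeR). In *MiR-29ab1-/-* mice it was 63.5 ± 26 and 11.6 ± 5.17 CPM, and the log2 fold change of -2.44 had a standard error of 0.39 (adjusted p = 3.9e-04 by edgeR). All mice after DSS were below all mice without DSS of their genotype.

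*Cyba*, which lies on chromosome 8 (122424776 to 122432930, minus strand), went from 61.8 ± 5.29 to 123 ± 10.6 CPM in WT mice (log2 fold change 1.00, standard error 0.13, adjusted p = 4.1e-05 by edgeR). In *MiR-29ab1-/-* mice it went from 54.0 ± 8.3 to 128 ± 18 CPM (log2 fold change 1.25, standard error 0.13, adjusted p = 3.7e-06 by edgeR). Phagocytes carry *Cyba* as the partner of *Cybb*, and the phagocyte list was higher after DSS for 9 of 9 tested genes in both genotypes, of which 2 passed an adjusted p under 0.05 in WT (*Ly6g* and *Cd14*) and 6 in *MiR-29ab1-/-* mice. *Cybb* itself did not pass (log2 fold change 0.69, standard error 0.57, in WT and 0.44, standard error 0.57, in *MiR-29ab1-/-* mice). All 7 genes of the epithelium in general were also higher after DSS at an adjusted p under 0.05 by edgeR in both genotypes. The part of phagocytes or of the epithelium in the change of *Cyba* was not tested.

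Of the other members 3 rose after DSS in the *MiR-29ab1-/-* mice. *Duoxa1* went from 0.974 ± 0.455 to 3.99 ± 1.31 CPM (log2 fold change 2.02, standard error 0.36, adjusted p = 4.2e-04 by edgeR) and *Duoxa2* from 35.1 ± 7.29 to 91.3 ± 34.8 CPM (1.38, standard error 0.43, adjusted p = 0.0201 by edgeR). *Nos2* went from 14 ± 2.17 to 34.7 ± 14.7 CPM (1.31, standard error 0.48, adjusted p = 0.0430 by edgeR), a call that was lost with no filter on low counts (adjusted p = 0.106) and without any 1 of 9 of the 14 mice, whose spread the model shares. The call of *Duoxa2* was lost without either *MiR-29ab1-/-* mouse with high *Duox2* after DSS, and without 1 *MiR-29ab1-/-* mouse that had no DSS. In WT mice these genes had log2 fold changes of 0.39, 0.54 and 0.52 (standard errors 0.37, 0.43 and 0.49) and did not pass. That the genotypes differed in this response was tested by the interaction above, and 0 members passed it after adjustment. *Duox2* had -0.48 (standard error 0.29) in WT and 0.15 (standard error 0.29) in *MiR-29ab1-/-* mice, and *Duox2*, *Duox1*, *Noxo1* and *Noxa1* passed in neither genotype.

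In all, 1 member was higher and 1 lower after DSS in WT mice, where 20.2% of 16370 genes were higher and 18.1% lower at an adjusted p under 0.05. In *MiR-29ab1-/-* mice 4 members were higher and 1 lower, where 23.2% of genes were higher and 22.7% lower.

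**Figure D3:**
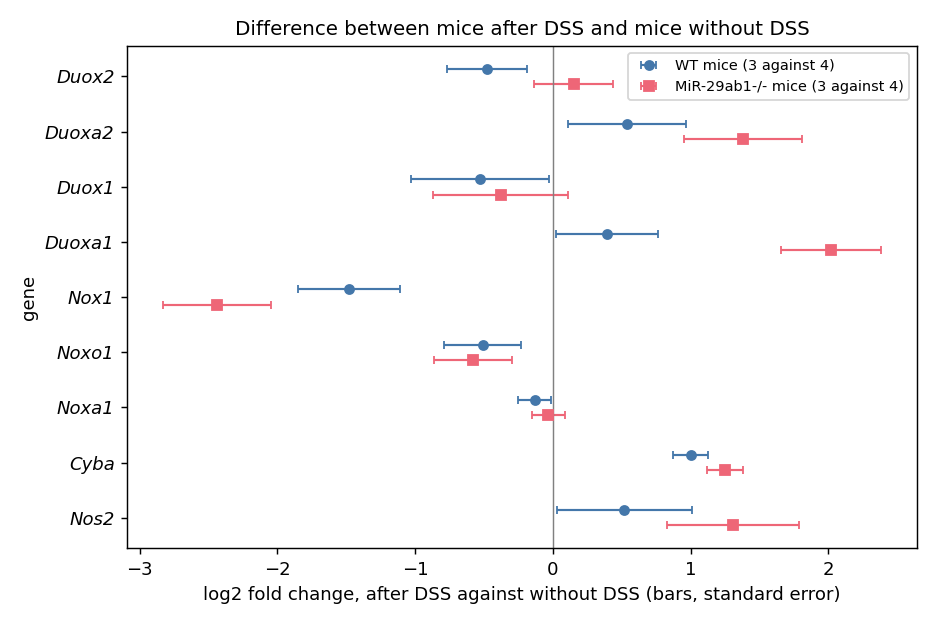
Log2 fold change of each gene between mice after DSS and mice without DSS (horizontal axis; bars are standard errors of edgeR's quasi-likelihood fit), in WT mice (blue circles) and *MiR-29ab1-/-* mice (red squares), 3 against 4 mice each. *Cyba* stood at 1.00 and 1.25 and *Nox1* at -1.48 and -2.44, and the counts of the experiments came as separate tables.

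Across the 14 mice *Duox2* and *Duoxa2* varied together. As deviations of log2 CPM from the group means, *Duox2* and *Duoxa2* had a Pearson r of 0.90 over all mice, the highest r of the 36 pairs of members over all mice (Spearman rho 0.86). Their r was 0.86 over the 8 mice without DSS and 0.95 over the 6 after DSS. *Duox1* had -0.0021 with *Duox2*, -0.069 with *Duoxa2* and -0.37 with *Duoxa1*. *Duoxa1* and *Duoxa2*, whose reads may be shared, had 0.75. *Duox2* and *Nos2* had 0.67 over all mice, which rested on the mice after DSS (0.95) more than on those without DSS (0.28). *Duox2* and *Nox1* had -0.019 over all mice, made of 0.41 without DSS and -0.69 after DSS. *Nox1* and *Noxa1* likewise had 0.95 without DSS and -0.65 after DSS. These values describe few mice of 2 experiments that differ in depth, and carry no test.

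Among 12982 genes with at least 1 CPM in both experiments, those whose deviations were most like those of *Duox2* were *Hk2* (r = 0.916), *Pld1* (0.913), *Duoxa2* (0.903), *Fndc3a* (0.873) and *Dnajc5* (0.858). For *Nos2* they were *Pigm* (0.909), *Cdc40* (0.831), *Efr3a* (0.827), *Tnf* (0.824) and *Pde11a* (0.82), of which *Tnf* is a cytokine known to induce *Nos2*. *Tnf* had 1.42, 3.81 and 4.51 CPM in the WT mice after DSS and 8.39, 10.8 and 3.25 CPM in the *MiR-29ab1-/-* mice. The genes named were picked as the most alike out of 12982, and a link of *Tnf* to *Nos2* in these mice was not tested. For *Nox1* they were *Rasd1* (0.952), *Cd177* (0.945), *Galk2* (0.9), *Gm38910* (0.893) and *Cttnbp2nl* (0.886).

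**Figure D4:**
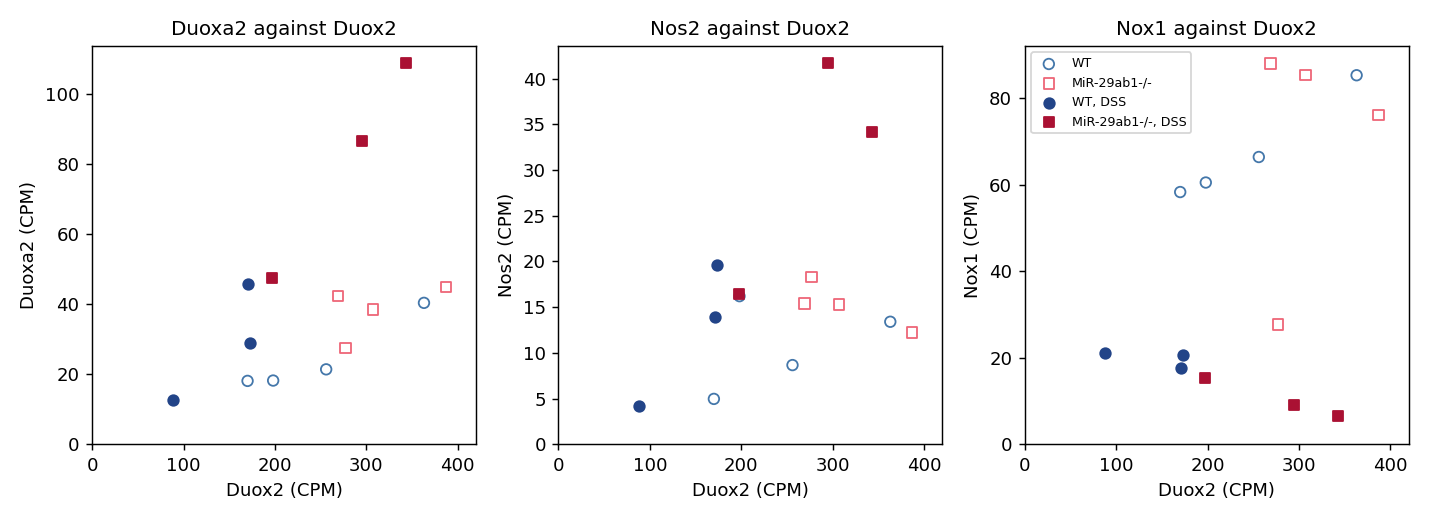
*Duoxa2*, *Nos2* and *Nox1* (vertical axes, CPM) against *Duox2* (horizontal axes, CPM) in each of the 14 mice, WT as circles and *MiR-29ab1-/-* as squares, open without DSS and filled after DSS. After DSS the *MiR-29ab1-/-* mice with 295 and 343 CPM of *Duox2* were also the highest for *Duoxa2* (86.6 and 109 CPM) and *Nos2* (41.7 and 34.2 CPM) and the lowest for *Nox1* (9.11 and 6.47 CPM).

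The genes around these enzymes were counted in lists. Of other oxidases and synthases (10 genes: the phagocyte oxidase, *Rac1*, *Rac2*, *Nox3*, *Nox4*, *Nos1* and *Nos3*) 6 were tested in each experiment, and 0 passed an adjusted or an unadjusted p under 0.05 between the genotypes. *Rac1*, the GTPase that activates NOX1, was the most abundant, at 408 ± 27.1 CPM in WT and 473 ± 18.7 CPM in *MiR-29ab1-/-* mice after DSS (SD, n = 3 each). *Nox3* and *Nox4* had at most 1 and 3 reads in any mouse. After DSS against no DSS *Rac1* rose in both genotypes, by log2 fold changes of 0.51 (standard error 0.12, adjusted p = 0.00504 by edgeR) in WT and 0.81 (standard error 0.12, adjusted p = 1.1e-04) in *MiR-29ab1-/-* mice.

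Of 22 antioxidant enzymes all were tested, and between the genotypes 0 passed an adjusted p under 0.05. Without DSS *Sod3*, the extracellular superoxide dismutase, had an unadjusted p under 0.05 (1.11 ± 0.481 CPM in *MiR-29ab1-/-* and 0.423 ± 0.14 CPM in WT mice), as did *Nqo1*, a quinone reductase (25.9 ± 4.89 and 35.5 ± 7.13 CPM). *Sod3* rested there on 11 to 25 reads per *MiR-29ab1-/-* mouse and 5 to 11 reads per WT mouse. After DSS *Gpx2*, the glutathione peroxidase of the gut epithelium, was at 427 ± 52.4 CPM in *MiR-29ab1-/-* and 348 ± 11.1 CPM in WT mice (log2 fold change 0.29, standard error 0.12, unadjusted p = 0.0362 and adjusted p = 0.657 by edgeR). *Srxn1*, which repairs peroxiredoxins, was at 151 ± 18.2 and 123 ± 12.9 CPM (0.30, standard error 0.12, adjusted p = 0.657 by edgeR). After DSS against no DSS 14 of the 22 rose in WT and 17 in *MiR-29ab1-/-* mice, and 0 fell. Among the 14 that rose in both, those with the largest folds were *Prdx6* (log2 fold changes 1.72 in WT and 1.91 in *MiR-29ab1-/-*), *Sod3* (2.05 and 1.17), *Prdx5* (1.13 and 1.40) and *Gpx1* (1.09 and 1.38). The folds of *Sod3* start from the few reads given above.

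Of 13 genes of arginine and cofactor supply to nitric oxide synthase 13 were tested without DSS and 12 after DSS, and 0 passed an adjusted p under 0.05 between the genotypes. *Gch1*, the first enzyme of tetrahydrobiopterin synthesis, had 34.8, 44.2 and 40.0 CPM in the WT mice after DSS and 63.5, 68.6 and 38.1 CPM in the *MiR-29ab1-/-* mice (log2 fold change 0.52, standard error 0.22, unadjusted p = 0.0460 and adjusted p = 0.668 by edgeR). The mouse with 38.1 CPM was again the *MiR-29ab1-/-* mouse with the lowest *Duox2*. After DSS against no DSS 6 genes rose and 3 fell in WT, and 7 rose and 3 fell in *MiR-29ab1-/-* mice, with *Gch1* at log2 fold changes of 1.28 and 1.97, its regulator *Gchfr* at 2.07 and 2.21, *Arg2*, an arginase that uses up arginine, at 1.76 and 2.17, and *Slc7a2*, an arginine transporter, at -2.69 and -1.58. The others that fell in both were *Arg1* (-0.95 and -1.29) and *Slc7a1* (-0.71 and -0.69), also named after their values were seen. *Slc7a2* was low throughout, at 1.11 CPM in WT without DSS and 0.172 CPM after DSS.

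Of 19 inducing signals, the cytokines, receptors and transcription factors known to act on *Duox2*, *Duoxa2* and *Nos2*, 15 were tested without DSS and 17 after DSS, and 0 passed an adjusted p under 0.05 between the genotypes. *Nfkbiz*, an NF-kappaB cofactor, had 35.7, 63.2 and 69.4 CPM in the WT mice after DSS and 98.8, 120 and 78.0 CPM in the *MiR-29ab1-/-* mice. The groups did not overlap, and the log2 fold change was 0.82 (standard error 0.28, unadjusted p = 0.0225 and adjusted p = 0.646 by edgeR). *Irf1*, an interferon-induced transcription factor, was at 108 ± 11.8 CPM in *MiR-29ab1-/-* and 90.5 ± 4.95 CPM in WT mice without DSS (0.26, standard error 0.097, unadjusted p = 0.0211 and adjusted p = 1 by edgeR) and at 175 ± 27.8 and 177 ± 45.3 CPM after DSS. *Ifng* and *Il22* were low, with at most 26 and 9 reads in any mouse. After DSS against no DSS 8 of 17 rose in WT and 7 rose and 1 (*Nod2*, a sensor of bacterial cell wall, named after its value was seen) fell in *MiR-29ab1-/-* mice, with *Il1b* at log2 fold changes of 5.37 and 5.09 from 0.0655 and 0.234 CPM, *Irf1* at 1.26 and 0.99, *Ifngr1* at 0.90 and 1.00 and *Ifngr2* at 0.60 and 0.66.

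Of the haem peroxidases, which use hydrogen peroxide, only *Lpo* of 3 was tested. It had 23.2 to 49.5 CPM in WT and 18.3 to 24.2 CPM in *MiR-29ab1-/-* mice after DSS (log2 fold change -0.62, standard error 0.28, unadjusted p = 0.0629 and adjusted p = 0.668 by edgeR). Without DSS 1 WT mouse had 401 CPM and 1 *MiR-29ab1-/-* mouse 469 CPM, and the other 6 mice had 26.9 to 55.0 CPM.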

How the data were processed

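RNA of colon, per the study, was extracted with TRIzol and libraries were made with a directional kit. For both experiments the authors deposited tables of unnormalized read counts by gene. The submitters' processing notes name HISAT2 and DESeq2; the counting tool, the genome build and the use of strand are not given in the sources used here. Start and end of all 9 members without DSS, and of 8 after DSS (not *Duox2*), were those of GENCODE vM21 on GRCm38. The FPKM columns (14) and, in each table, 5 columns of the authors' own comparison (fold changes and p-values) were not used. Columns after DSS carry numbers other than those of the sample titles, so they were assigned to a genotype only.

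Counts were filtered (filterByExpr, minimum count 10, minimum total 15), scaled by TMM and tested by the quasi-likelihood test of edgeR 4.0.16 in R 4.3.3, within each table, and for the interaction and DSS contrasts in one model of the genes shared by both tables. CPM values are counts over effective library size. Adjusted p-values are Benjamini-Hochberg over all genes tested. Single members were compared by two-sided exact permutation of log2 CPM (prior count 2). The labels number the mice but do not describe rearing or processing, so p-values measure the spread between these mice only. The floor of 3 reads covers counting error only. Alternatives were RLE size factors, no filter, DESeq2 1.42.0, each mouse left out, the replicate number as a block, all 14 mice in one model, scores of epithelial or phagocyte genes as covariates, a prior count of 0.5 and, added after seeing the data, removal of mitochondrial reads. Named genes are the 9 members; of each list those with an unadjusted p under 0.05 between genotypes, up to 4 with the highest CPM and up to 4 with the largest DSS fold in both genotypes; and the 5 genes most like *Duox2*, *Nos2* and *Nox1*. Values of other genes were added after they were seen where a result of a member turned on them (*Cybb*, *Muc2*, *Cubn*, *Nod2*, *Arg1*, *Slc7a1*, *Lpo*, *Ifng*, *Il22*). The members and lists were chosen with earlier results of these data known. The tests were tried on simulated counts. Not every gene of the lists is reported here.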

Additional observations from a re-analysis of the deposited data

Results flagged for a closer look

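In 18 groups of 4 mice without DSS, 3 held a mouse far from the others by Dixon's ratio, which chance gives in about 5% of groups. *Duox1* was at 1.72 CPM in 1 *MiR-29ab1-/-* mouse and at 0.571 to 0.744 CPM in the other 3, from 24 against 9 to 11 reads. *Duoxa2* was at 40.4 CPM in 1 WT mouse and at 18.1 to 21.4 CPM in the other 3, and this mouse also had the highest *Duox2* of its group (363 CPM). *Noxa1* was at 99.0 CPM in 1 WT mouse and at 109 to 111 CPM in the other 3. The causes were not tested.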

How the results depend on the processing

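Counts of members past an adjusted p under 0.05 did not move with RLE scaling or DESeq2, and without a filter only that for DSS in *MiR-29ab1-/-* mice moved, from 5 to 4. Between the genotypes it stayed at 0 under all alternatives except that it was 0 to 1 as each mouse after DSS was left out. It was 0 throughout for the interaction, 2 throughout for DSS in WT mice, and 3 to 5 for DSS in *MiR-29ab1-/-* mice as each mouse was left out. Counts at an unadjusted p under 0.05 moved more. Without DSS the count of 1 became 0 with no filter, with the phagocyte score or with all 14 mice in one model, became 2 with the replicate block (*Duox2*, unadjusted p = 0.019, and *Duoxa2*, unadjusted p = 0.00385), and was 0 to 2 as each mouse was left out. After DSS the count of 3 became 1 with the phagocyte score and 5 with all 14 mice in one model (*Duoxa2* and *Nos2* added). The interaction count of 1 became 2 with DESeq2 (*Nox1* added) and was 1 to 2 as each mouse was left out. The replicate numbers without DSS name different animals. Deviations of same-numbered mice had correlations of -0.19 to 0.15, and those of other pairs ran from -0.28 to 0.26. With so few mice these values cannot show whether same-numbered mice shared a litter or batch, and the labels do not say. No paired analysis was possible after DSS because the numbers of the columns are not those of the labels.

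Signs turned for *Duox1*, *Nox1* (without DSS), *Noxo1*, *Noxa1* and *Cyba*, none of them past a threshold there. Without DSS *Nox1* was -0.069 with the replicate block and -0.059 with the phagocyte score, and *Noxo1* 0.022 with the block. With each mouse left out in turn, estimates that turned had these ranges. Without DSS *Duox1* gave -0.32 to 0.35, *Nox1* -0.1 to 0.3, *Noxo1* -0.17 to 0.25 and *Noxa1* -0.11 to 0.038. After DSS *Duox1* gave -0.2 to 0.62, *Noxo1* -0.23 to 0.14, *Noxa1* -0.086 to 0.12 and *Cyba* -0.038 to 0.16. In the interaction *Duox1* gave -0.37 to 0.63, *Noxo1* -0.32 to 0.14 and *Noxa1* -0.024 to 0.17, and for DSS in *MiR-29ab1-/-* mice *Duox1* gave -0.89 to 0.1 and *Noxa1* -0.13 to 0.038. With covariates, after DSS *Noxa1* was -0.071 with the epithelial and -0.08 with the phagocyte score, and *Cyba* -0.065 and -0.038. The causes were not tested. Removing mitochondrial reads, tried for the comparisons of genotypes within each experiment, changed no count there. A prior count of 0.5 left 0 of 18 permutation tests under 0.05. With 3 mice a group, and with 5 to 39 reads for *Duox1* and *Duoxa1* in WT mice after DSS, depth and number limit what could be seen.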
